A study of Mus musculus with 8 samples.

Results

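The 10 genes described here, Mpo, Elane, Prtn3, Ctsg, Ms4a3, Gstm1, Fcnb, Igsf6, Calr and Nkg7, are early granule and promyelocyte genes of the neutrophil lineage. They were taken as a list of gene symbols, drawn up with earlier results of these data known, and all 10 were found among the 24411 genes of the deposited tables. All 10 also passed the filter on low counts and were among the 13177 genes tested.

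Neutrophils store their antimicrobial proteins in granules that are filled in successive waves as the cell matures. The primary, or azurophil, granules come first, in the promyelocyte. They hold myeloperoxidase, which makes hypochlorous acid, and the serine proteases neutrophil elastase, proteinase 3 and cathepsin G, which are made as inactive precursors and trimmed by cathepsin C. Transcripts of these proteins already appear in granulocyte and monocyte progenitors of the bone marrow, and they decline again before the lactoferrin-containing secondary granules are filled. Among the 10 genes, Mpo, Elane, Prtn3 and Ctsg encode granule contents. Ms4a3, Igsf6 and Nkg7 encode membrane proteins, Gstm1 a cytosolic enzyme, Fcnb a secreted lectin and Calr a chaperone of the endoplasmic reticulum.

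The RNA came from common myeloid progenitors of wild-type C57BL/6 mice, which were sorted from bone marrow into 4 fractions with 2 libraries each. All 4 fractions carried the receptor KIT and lacked CD16/32, and they differed as follows. The first was CD34bright CD41+ CD9+, and the second CD34dim CD41+ CD9+ CD48bright. The third was CD34dim CD41+ CD9+ CD48dim, and the fourth was CD34dim CD41- CD9-. They are called CD34bright, CD48bright, CD48dim and CD41/CD9-negative, and the libraries of each are called library 1 and library 2 after the replicate number in their labels. No age, sex or number of animals is given in the sources used here, and nothing there says that the 2 libraries of a fraction came from separate mice or sorts. The spread behind the p-values is therefore that between libraries and may be technical.

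The libraries held 7237585 to 20632001 counts, with the smallest total in CD48dim library 2. The genes of the gates followed the labels in part. Itga2b, which encodes CD41, was at 2.83 and 2.18 CPM in CD41/CD9-negative cells and at 64.3 to 155 CPM in the other 6 libraries, where CPM are counts per 1e6 counts of the scaled library. Cd48 was at 35.8 and 16.9 CPM in CD48dim and at 157 to 246 CPM elsewhere, and Cd34 was at 510 and 461 CPM in CD34bright against 166 to 397 CPM elsewhere. In the deposited TPM, Cd34 overlapped, at 324 and 353 in CD34bright and 150 to 348 elsewhere. Of the 7 gate genes tested, edgeR called Itga2b, Cd48 and Kit in at least 1 pair of fractions, and Cd9 in none. Kit, whose protein all 4 fractions carried, was lower in CD41/CD9-negative cells than in CD48dim (adjusted p = 0.0360). That call was lost without any 1 of the 6 libraries outside CD48dim. The groups are those of the sort gates in the labels. Sample titles and the study's design text number the clusters differently, and these numbers were not used. CD48dim library 2 stood apart from the rest: the nuclear RNA Malat1 took 38947 CPM there against 5004 to 14867 CPM in the other 7 libraries, and 20 ribosomal protein genes took 0.850% of its counts against 1.68% to 3.23%. CD48dim library 1 stood apart in another way, with a summed 2030 CPM of 14 secondary and tertiary granule genes against 40.8 to 414 CPM in the other 7. The differences of the 10 genes between CD41/CD9-negative cells and CD48dim are therefore given with and without each CD48dim library.

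The 250 bases upstream of the annotated start were read from RefSeq's promoter table, in which all 10 genes were matched. These stretches lie just before that start, and they were searched for the binding letters of factors that control myeloid genes. The letters searched, on both strands, were GAGGAA for PU.1, TTNNGNAA for C/EBP factors, TGTGGT for RUNX1, AACNGNC for MYB and, for the ER stress element, CCAAT and CCACG with 9 bases between them. Among 32851 promoters of the same length, they were held by 23.3%, 36.8%, 14.0%, 27.7% and 0.113%, respectively. The 4 genes of primary granule contents are shown first because each holds the PU.1 letters. Fcnb and Calr follow because neither holds the PU.1 letters and each holds letters that none of the 4 has. Each sequence is on the gene's own strand and ends at the base before the promoter table's start, and capitals mark the matches. For Fcnb and Igsf6 that start lies inside the gene span given below. The end of their windows therefore overlaps the annotated gene, and distances are counted from the promoter table's start.
Mpo: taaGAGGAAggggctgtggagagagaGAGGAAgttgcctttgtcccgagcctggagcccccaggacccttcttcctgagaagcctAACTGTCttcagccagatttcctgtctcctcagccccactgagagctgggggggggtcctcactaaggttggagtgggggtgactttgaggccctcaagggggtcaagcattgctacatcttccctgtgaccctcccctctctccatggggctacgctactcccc
Elane: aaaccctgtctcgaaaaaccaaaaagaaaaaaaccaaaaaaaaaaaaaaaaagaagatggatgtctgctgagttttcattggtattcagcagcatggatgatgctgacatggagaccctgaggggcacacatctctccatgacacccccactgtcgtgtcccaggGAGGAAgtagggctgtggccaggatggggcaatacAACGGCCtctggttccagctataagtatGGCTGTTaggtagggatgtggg
Prtn3: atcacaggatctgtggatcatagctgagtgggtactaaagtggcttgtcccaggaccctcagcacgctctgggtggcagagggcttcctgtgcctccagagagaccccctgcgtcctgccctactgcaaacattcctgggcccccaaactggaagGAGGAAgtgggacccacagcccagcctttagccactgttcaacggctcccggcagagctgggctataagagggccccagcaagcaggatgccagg
Ctsg: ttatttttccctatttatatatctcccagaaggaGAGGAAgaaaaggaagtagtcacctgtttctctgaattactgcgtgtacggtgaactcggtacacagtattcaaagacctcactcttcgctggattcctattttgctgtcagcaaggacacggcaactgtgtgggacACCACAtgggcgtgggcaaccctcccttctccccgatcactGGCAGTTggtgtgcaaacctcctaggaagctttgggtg
Fcnb: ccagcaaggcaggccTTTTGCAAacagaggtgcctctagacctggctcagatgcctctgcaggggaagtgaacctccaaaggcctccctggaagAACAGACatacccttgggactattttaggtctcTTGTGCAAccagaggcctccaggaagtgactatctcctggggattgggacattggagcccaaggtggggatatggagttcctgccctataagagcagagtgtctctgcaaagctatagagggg
Calr: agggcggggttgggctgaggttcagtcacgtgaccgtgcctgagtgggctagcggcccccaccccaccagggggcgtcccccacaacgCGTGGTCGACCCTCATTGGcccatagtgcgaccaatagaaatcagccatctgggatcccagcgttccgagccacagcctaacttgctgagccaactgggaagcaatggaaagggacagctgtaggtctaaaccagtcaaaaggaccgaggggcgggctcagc

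In assembly GRCm38.p6, the same coordinates as mm10, these windows were chr11:87793534-87793783 (plus strand) for Mpo, chr10:79886062-79886311 (plus) for Elane and chr10:79879417-79879666 (plus) for Prtn3. They were chr14:56102575-56102824 (minus) for Ctsg, chr2:28084879-28085128 (minus) for Fcnb and chr8:84846932-84847181 (minus) for Calr. The PU.1 letters stood in 5 of the 10 genes, Mpo, Elane, Prtn3, Ctsg and Igsf6, and in Igsf6 they fell within its annotated span. In Mpo they occurred at 2 places, 247 and 224 bases before the start, and in Elane and Prtn3 at 85 and 95 bases before it. The MYB letters stood in 6 genes (Mpo, Elane, Ctsg, Fcnb, Igsf6 and Nkg7) and the RUNX letters in 2 (Ctsg and Nkg7). The C/EBP letters stood in 3 genes, Ms4a3, Fcnb and Igsf6, and in Fcnb they began 235 and 123 bases before the start. The ER stress element, a sequence through which chaperone genes respond to unfolded protein, was found in Calr only, from 162 to 144 bases before the start, where it lay on the opposite strand. Gstm1, whose table entry has 2 starts, held none of these letters at either. A match describes the letters in these windows and is not a measured binding site.

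Mpo, which encodes myeloperoxidase (chr11:87793784-87804412), was the most abundant of the 10 in all 8 libraries by counts. Its levels were 16433 and 12863 CPM in CD34bright, 15263 and 6814 CPM in CD48bright, 9789 and 2103 CPM in CD48dim, and 3107 and 2182 CPM in CD41/CD9-negative cells. Both CD34bright and both CD48bright libraries therefore lay above both CD41/CD9-negative libraries, while the CD48dim libraries spanned the range, with library 2 as low as the CD41/CD9-negative cells. An antisense or overlapping gene could add reads, since the libraries carry no strand information, and the annotated long non-coding RNA Gm34064 overlaps Mpo but is not among the genes used here. Mpo alone took 1.54% and 1.21% of all counts in CD34bright and 0.306% and 0.224% in CD41/CD9-negative cells. The log2 fold change of CD41/CD9-negative against CD34bright was -2.47 ± 0.74 (SE), a 5.54-fold lower level, with an adjusted p of 0.216. Against CD48bright it was -2.06 ± 0.73 (adjusted p = 0.471), and against CD48dim -1.17 ± 0.71 (adjusted p = 0.406). Without CD48dim library 1 the last difference turned to 0.34 (adjusted p = 0.640), and without library 2 it was called at -1.89 (0.0189). In bulk samples, fewer cells that express a gene and less RNA per cell cannot be told apart.

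**Figure D1:**
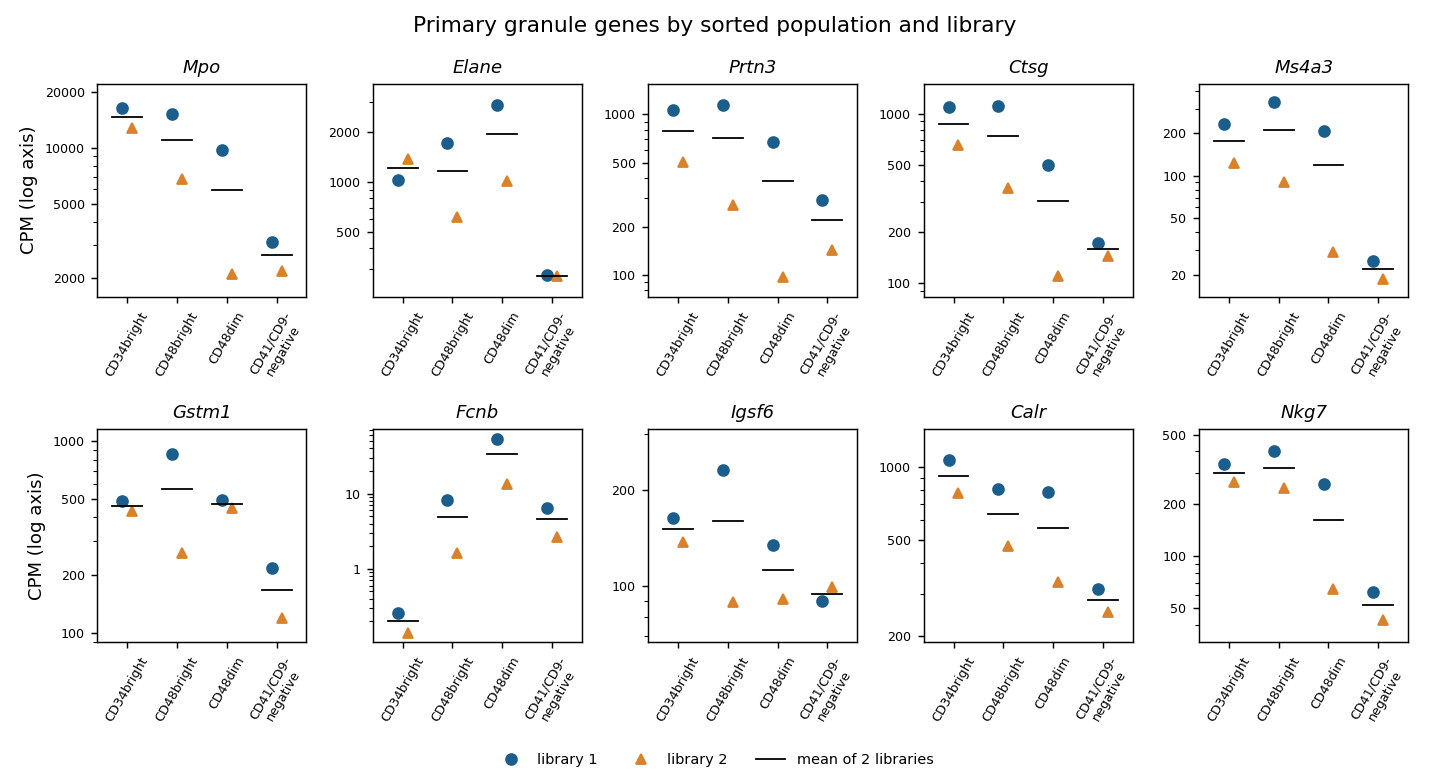
Level of each of the 10 genes in CPM (log axis) in the 4 sorted fractions. Circles are library 1, triangles library 2 and lines the mean of both. In Mpo the CD41/CD9-negative libraries sit at 3107 and 2182 CPM, below both CD34bright and both CD48bright libraries, and in Fcnb the CD48dim libraries, at 54.0 and 13.5 CPM, are the highest.

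The granule serine proteases did not all follow Mpo. Elane, which encodes neutrophil elastase (chr10:79886312-79888216), was at 1033 and 1375 CPM in CD34bright, 1706 and 614 CPM in CD48bright, 2874 and 1011 CPM in CD48dim, and 275 and 273 CPM in CD41/CD9-negative cells. Both CD41/CD9-negative libraries were below all 6 others, and the 3 CD41+ fractions overlapped one another. Elane fell in CD41/CD9-negative cells against CD48dim, by 2.82 ± 0.62 on the log2 scale (7.09-fold lower, adjusted p = 0.0376). The call held without CD48dim library 1 (-1.87, adjusted p = 0.0112) and library 2 (-3.39, 0.000458) and without either CD48bright library. It was lost without CD34bright library 1 (0.0530) or 2 (0.0546), without CD41/CD9-negative library 1 (0.262) or 2 (0.264), and in a fit of the 4 compared libraries alone (0.131). Against CD34bright the difference was -2.13 ± 0.60 (adjusted p = 0.191), and against CD48bright -2.08 ± 0.60 (adjusted p = 0.301).

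Prtn3, which encodes proteinase 3 (chr10:79879667-79883174), lies 3137 bases upstream of Elane and is read in the same direction. Its levels were 1063 and 503 CPM in CD34bright, 1153 and 274 CPM in CD48bright, 675 and 97.3 CPM in CD48dim, and 294 and 144 CPM in CD41/CD9-negative cells. The 2 libraries of each fraction differed by 2.05-fold or more, so that only the CD34bright libraries were both above the CD41/CD9-negative ones. The difference between CD41/CD9-negative and CD34bright was -1.84 ± 0.91 (adjusted p = 0.570), against CD48bright -1.70 ± 0.90 (0.815) and against CD48dim -0.82 ± 0.88 (0.673). The last turned to 1.18 without CD48dim library 1 and was -1.62 without library 2, neither of them called. The gene on the other side of Elane, Cfd, which encodes complement factor D, was at most at 1.65 CPM in any library.

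Ctsg, which encodes cathepsin G (chr14:56099885-56102574), was at 1090 and 652 CPM in CD34bright, 1115 and 366 CPM in CD48bright, 497 and 111 CPM in CD48dim, and 173 and 146 CPM in CD41/CD9-negative cells. Both CD34bright and both CD48bright libraries lay above both CD41/CD9-negative libraries, and CD48dim library 2 was the lowest of the 8. The difference was -2.45 ± 0.73 against CD34bright (adjusted p = 0.212), -2.22 ± 0.72 against CD48bright (0.388) and -0.93 ± 0.70 against CD48dim (0.509). The last turned to 0.53 without CD48dim library 1 (adjusted p = 0.486) and was called at -1.64 without library 2 (0.0492). CD34bright exceeded CD48dim by 1.52 ± 0.70 (adjusted p = 0.278), a difference that was called without CD48dim library 1 (2.99, adjusted p = 0.00402) and not without library 2 (0.82, 0.399). Ctsg lies between genes of a mast cell protease family and granzyme genes. Its neighbour Mcpt8, which encodes a basophil protease, was at 62.7 and 52.4 CPM in CD34bright, 198 and 81.9 in CD48bright, 19.1 and 3.98 in CD48dim and 3.07 and 7.18 in CD41/CD9-negative cells. Mcpt8 differed among the 4 fractions (adjusted p = 0.0303). The call was lost without CD41/CD9-negative library 1 (0.140) or 2, or CD48bright library 1. The neighbour on the other side, Gzme, had 0 counts.

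Levels between genes were compared in the deposited TPM, which take transcript length into account. In TPM the proteases were set against Mpo within each library. This ratio was looked at after the levels had been seen, and it is given as a description with no test. Elane stood at 21.5% and 36.6% of the Mpo TPM in CD34bright, 38.7% and 30.4% in CD48bright and 30.5% and 42.3% in CD41/CD9-negative cells, but at 99.4% and 163% in the CD48dim libraries. Both CD48dim libraries were thus above the other 6 in this ratio, although their Mpo TPM differed 3.12-fold. The ratio of Prtn3 to Mpo ranged over the 8 libraries from 12.5% to 30.3% and that of Ctsg from 15.3% to 22.5%, with the CD48dim libraries inside the range or, for Ctsg library 1, at its lower end. Elane and Prtn3, the adjacent pair, had a TPM ratio of 4.57 and 11.2 in CD48dim and of 1.01 to 2.94 in the other 6 libraries.

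**Figure D2:**
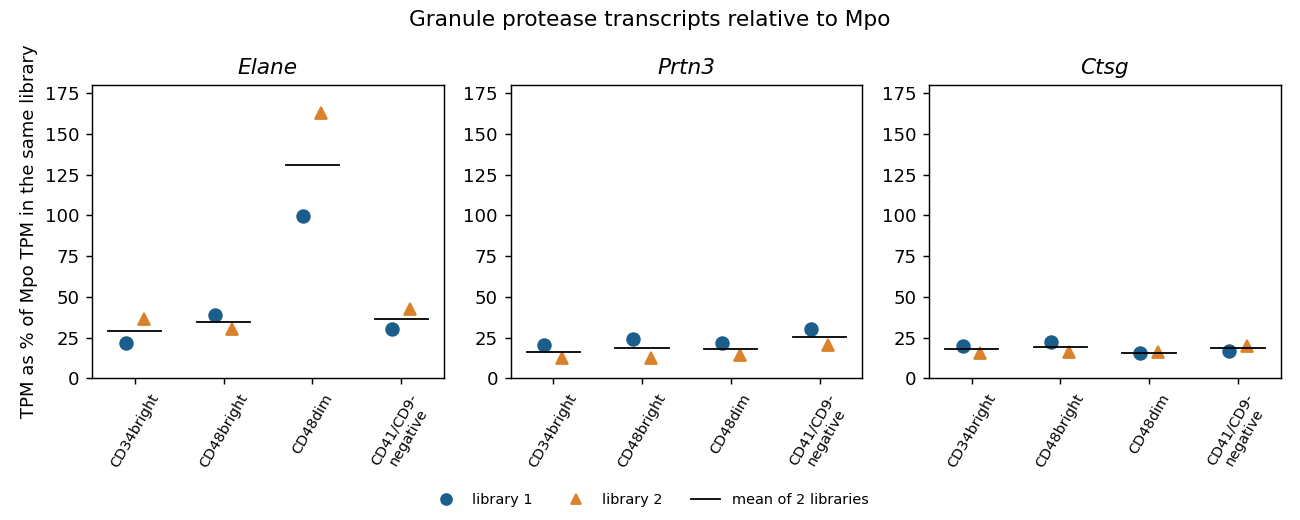
TPM of Elane, Prtn3 and Ctsg as a percentage of the Mpo TPM of the same library (linear axis from 0), by sorted fraction. Circles are library 1, triangles library 2 and lines the mean of both. Elane reaches 99.4% and 163% in CD48dim and 21.5% to 42.3% in the other 6 libraries, while Prtn3 and Ctsg stay between 12.5% and 30.3% in all 8.

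Ms4a3 encodes a membrane-spanning protein of granulocyte and monocyte progenitors (chr19:11629499-11640851). It was at 232 and 124 CPM in CD34bright, 334 and 91.2 CPM in CD48bright, 208 and 28.9 CPM in CD48dim, and 24.9 and 18.6 CPM in CD41/CD9-negative cells. Both CD41/CD9-negative libraries were below the other 6. The differences were among the largest of the 10 genes, at -3.03 ± 0.89 against CD34bright (adjusted p = 0.206), -3.29 ± 0.90 against CD48bright (0.266) and -2.45 ± 0.87 against CD48dim (0.162). The last was -0.40 without CD48dim library 1 (adjusted p = 0.647) and was called at -3.26 without library 2 (0.00212). Across the 8 libraries Ms4a3 followed the mean of the other 9 genes more closely than any other member did, with a Pearson r of 0.983.

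Fcnb did not follow the others. It encodes ficolin B (chr2:28076479-28084910), a lectin of myeloid cells that recognises sugars on microbes and starts the complement cascade. Its counts were 5 and 2 in CD34bright, 156 and 18 in CD48bright, 735 and 98 in CD48dim and 82 and 33 in CD41/CD9-negative cells. These counts correspond to 0.26 and 0.14 CPM, 8.11 and 1.65 CPM, 54.0 and 13.5 CPM, and 6.45 and 2.66 CPM. Both CD48dim libraries were above the other 6 and both CD34bright libraries below the other 6. Over both libraries, CD34bright had 0.209 CPM with a 95% exact Poisson interval of 0.0841 to 0.431, and CD48dim had 39.9 CPM (37.2 to 42.7). These intervals cover counting error only.

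Fcnb was lower in CD34bright than in CD48dim by 7.31 ± 1.24 on the log2 scale (adjusted p = 0.0423), and it differed among the 4 fractions (adjusted p = 0.0410). The first call held without CD48dim library 1 (-5.97, adjusted p = 0.00276) and without CD48dim library 2 (-7.97, 0.000829). It was lost without CD34bright library 1 (0.307) or 2 (0.275), without CD41/CD9-negative library 1 (0.0767) or 2 (0.0722), in limma-voom (0.0874) and in a fit of the 4 compared libraries alone (0.262). Against CD48bright, CD34bright was at -4.53 ± 1.13, with an unadjusted p of 0.00278 and an adjusted p of 1. CD48bright against CD48dim was at -2.78 ± 0.97 (adjusted p = 0.252). CD41/CD9-negative cells were at 4.42 ± 1.13 against CD34bright (adjusted p = 0.138), -0.11 ± 0.92 against CD48bright (1) and -2.89 ± 0.97 against CD48dim (0.145). The last was -1.55 without CD48dim library 1 (adjusted p = 0.266) and was called at -3.56 without library 2 (0.0107). Fcna, the other ficolin gene, which macrophages of liver and spleen make, did not exceed 2.7 CPM in any library.

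The levels of secondary and tertiary granule genes moved in part with Fcnb. The list holds 14 genes, among them Ltf (lactoferrin), Camp (the cathelicidin), Lcn2 (lipocalin) and Ngp (neutrophilic granule protein). Their summed level was 119 and 71.9 CPM in CD34bright, 172 and 59.4 CPM in CD48bright, 2030 and 311 CPM in CD48dim, and 414 and 40.8 CPM in CD41/CD9-negative cells. Ltf was at 344 and 25.6 CPM in CD48dim and at 44.2 and 2.42 CPM in CD41/CD9-negative cells, and Ngp was at 735 and 72.4 CPM and at 122 and 5.97 CPM. In both of these fractions library 1 was thus the higher by a wide margin. CD41/CD9-negative library 2 had the lowest sum of the 8 and still had 2.66 CPM of Fcnb, whereas CD34bright library 1, with a higher sum, had 0.26 CPM. Of the 12 later granule genes tested, edgeR called 0 in any of the 6 pairs. At an unadjusted p below 0.05 there were 9 in CD34bright against CD48dim (19% of all genes) and 8 in CD48bright against CD48dim (14.6%), all negative. DESeq2 called 7 and 6 of the 12 there, against 9.77% and 5.76% of all genes, and limma-voom called 0. The part of these later granule transcripts in the level of Fcnb was not tested.

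**Figure D3:**
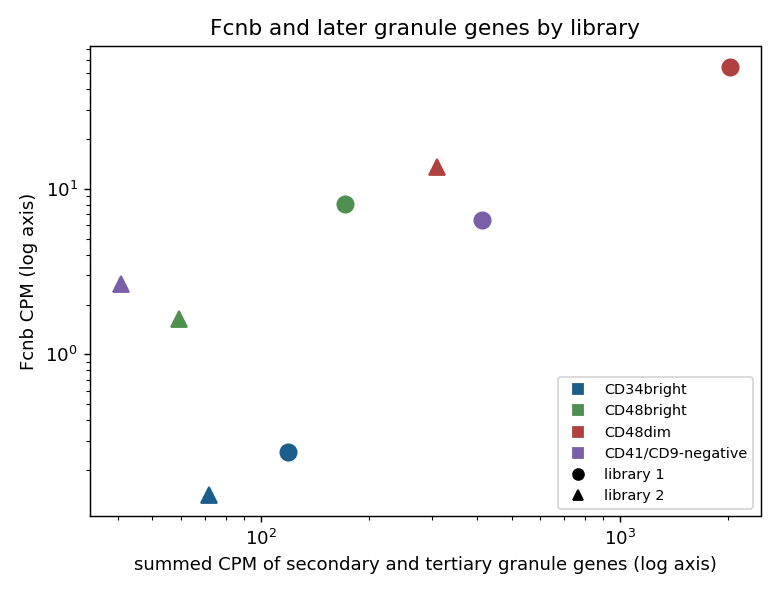
Fcnb level against the summed level of 14 secondary and tertiary granule genes, both in CPM on log axes, for the 8 libraries. Colours are the sorted fractions, circles library 1 and triangles library 2. CD48dim library 1 lies at the top right with 54.0 CPM of Fcnb and a sum of 2030 CPM, and the CD34bright libraries lie lowest, at 0.26 and 0.14 CPM, although their sums of 119 and 71.9 CPM are not the lowest.

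Genes of mature neutrophils showed the same uneven libraries. Over the 11 genes of that list, the CD48dim libraries held 3867 and 800 CPM, the CD41/CD9-negative libraries 660 and 194 CPM and the other 4 libraries 293 to 368 CPM. S100a8, which encodes a calprotectin subunit, was at 990 and 190 CPM in CD48dim, at 125 and 11.5 CPM in CD41/CD9-negative cells and at 9.44 to 26.2 CPM elsewhere. S100a8 differed among the 4 fractions (adjusted p = 0.0434, lost without either CD34bright or either CD48bright library, highest 0.0863). Cxcr2, the chemokine receptor of mature neutrophils, was in contrast lower in CD41/CD9-negative cells than in CD34bright, with 8.34 and 4.76 CPM against 55.8 and 86.9 CPM (log2 fold change -3.44 ± 0.51, adjusted p = 0.0234). That call was lost without either CD34bright or either CD41/CD9-negative library, with an adjusted p of up to 0.199.

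Gstm1 encodes a mu-class glutathione S-transferase that conjugates glutathione to electrophiles (chr3:108012250-108017973). It was at 489 and 431 CPM in CD34bright, 857 and 261 CPM in CD48bright, 492 and 446 CPM in CD48dim, and 217 and 120 CPM in CD41/CD9-negative cells. Both CD41/CD9-negative libraries were below the other 6, and by CPM the CD48dim libraries were as close to each other as those of CD34bright. This sets Gstm1 apart from Mpo and Ctsg, for which CD48dim library 1 was 4.66-fold and 4.49-fold above library 2, against 1.10-fold for Gstm1. The differences were -1.45 ± 0.53 against CD34bright (adjusted p = 0.359), -1.73 ± 0.54 against CD48bright (0.347) and -1.48 ± 0.53 against CD48dim (0.167), the last at -1.40 without CD48dim library 1 and -1.54 without library 2, neither of them called. Gstm1 was the main gene of its family here. Its close relatives Gstm2, Gstm4, Gstm5 and Gstm7 did not exceed 39.2 CPM in any library, Gstm3 was at 0 in all 8, and reads shared between these relatives may be divided between them by the estimation.

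Igsf6 encodes a membrane protein of the immunoglobulin superfamily found on myeloid cells (chr7:121064067-121074581). It was at 164 and 137 CPM in CD34bright, 231 and 89.2 CPM in CD48bright, 135 and 91.0 CPM in CD48dim, and 89.9 and 99.3 CPM in CD41/CD9-negative cells. Only CD34bright lay above both CD41/CD9-negative libraries, and the differences were the smallest of the 10 genes against CD34bright (-0.67 ± 0.44, adjusted p = 0.732) and CD48dim (-0.26 ± 0.44, 0.811). The difference against CD48dim was 0.066 without CD48dim library 1 and -0.51 without library 2, neither of them called. Against CD48bright it was -0.76 ± 0.44 (0.881). Igsf6 lies within the span of Mettl9, and the libraries carry no strand information. Mettl9 had 4469 counts over the 8 libraries against 15415 for Igsf6, so reads of one could be counted for the other.

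Nkg7 encodes a membrane protein of cytotoxic granules that is best known from natural killer cells (chr7:43437138-43438246). It was at 339 and 265 CPM in CD34bright, 400 and 245 CPM in CD48bright, 259 and 65.0 CPM in CD48dim, and 62.2 and 42.7 CPM in CD41/CD9-negative cells. Both CD41/CD9-negative libraries were below the other 6, although CD48dim library 2 was only just above. The differences were -2.53 ± 0.60 against CD34bright (adjusted p = 0.110), -2.62 ± 0.60 against CD48bright (0.156) and -1.63 ± 0.58 against CD48dim (0.165). The last was -0.30 without CD48dim library 1 (adjusted p = 0.589) and was called at -2.30 without library 2 (0.00138). A list of 15 cytotoxic lymphocyte genes, which includes Nkg7, had 12 tested genes. Of these, 11 had positive fold changes in CD48bright against CD48dim (median 1.95) and 10 had negative ones in CD41/CD9-negative against CD48bright (median -1.21). In both comparisons edgeR called 0, against 0.387% and 0.212% of all genes. At an unadjusted p below 0.05 there were 3 in each, against 14.6% and 7.12% of all genes. DESeq2 called 1 and 2, against 5.76% and 2.78% of all genes. Several were highest in CD48bright at low levels, such as Gzmb, which encodes granzyme B, at 18.5 and 6.13 CPM there and at most 2.94 CPM elsewhere, and Ncr1, a receptor of natural killer cells, at 5.05 and 4.30 CPM and at most 2.18 CPM. Prf1, which encodes perforin, did not exceed 0.73 CPM in any library, and Gzmc was at 0 in all 8. The part of cytotoxic cells in the level of Nkg7 was not tested. Klrd1 was at 29.3 and 20.7 CPM in the CD41/CD9-negative cells, where Nkg7 was lowest, and at 0 in both CD48dim libraries. Klrd1 was higher in CD41/CD9-negative cells than in CD48dim (adjusted p = 0.00948), a call lost without CD41/CD9-negative library 1 (0.0646).

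Calr encodes calreticulin (chr8:84842088-84846931), a calcium-binding chaperone of the endoplasmic reticulum that assists the folding of the myeloperoxidase precursor. It was at 1061 and 777 CPM in CD34bright, 810 and 471 CPM in CD48bright, 786 and 333 CPM in CD48dim, and 312 and 253 CPM in CD41/CD9-negative cells. Both CD41/CD9-negative libraries were below the other 6. The differences were -1.70 ± 0.48 against CD34bright (adjusted p = 0.185), -1.18 ± 0.47 against CD48bright (0.582) and -0.99 ± 0.47 against CD48dim (0.286). The last was -0.23 without CD48dim library 1 (adjusted p = 0.693) and was called at -1.47 without library 2 (0.0238). Calr followed the mean of the other members across the 8 libraries with r = 0.939.

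Other chaperones of the endoplasmic reticulum did not keep Calr's order in every comparison. Of 15 such genes, among them Hspa5 (BiP), Pdia3 and Canx (calnexin, the membrane-bound partner of calreticulin), edgeR called 0 in any of the 6 pairs. At an unadjusted p below 0.05 there were 8 in CD34bright against CD48dim (19% of all genes) and 7 in CD48bright against CD48dim (14.6%). There was 1 in CD41/CD9-negative against CD48dim (19.5%) and 0 in the rest. DESeq2 called 4, 1 and 0 in these comparisons with CD48dim, against 9.77%, 5.76% and 11.7% of all genes, and 0 in the rest. The chaperones' fold changes were negative for 15 of 15 in CD41/CD9-negative against CD34bright (median -0.64) and for 14 of 15 against CD48bright (median -0.47). Against CD48dim, 12 of 15 were positive (median 0.45), where Calr was at -0.99. Hspa5 was at 1658 and 1118 CPM in CD34bright, 1974 and 1166 CPM in CD48bright, 888 and 750 CPM in CD48dim and 936 and 821 CPM in CD41/CD9-negative cells. Canx was at 526 and 365 CPM in CD48dim and at 725 and 604 CPM in CD41/CD9-negative cells, the reverse order of Calr.

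Set side by side, the 10 genes were low in CD41/CD9-negative cells, Fcnb excepted, and how many passed a test depended on which libraries set the spread. Against CD34bright, 9 genes had both CD41/CD9-negative libraries below both CD34bright libraries, where 25.6% of all tested genes did. Only Fcnb had them above, where 25.4% did. The median log2 fold change of the 10 was -1.99, against -0.004 for all genes tested. In the fit of all 8 libraries, edgeR called 0 of the 10, against 0.842% of all genes, while 8 passed at an unadjusted p below 0.05, against 9.91%. In a fit of the 4 compared libraries alone, 9 of the 10 were called, 8 of them lower and Fcnb higher, against 8.70% of the 12428 genes in that fit. The adjusted p-values were then 1.47e-05 for Ms4a3, 2.5e-05 for Nkg7, 8.1e-05 for Ctsg, 0.000196 for Elane and 0.000993 for Mpo, and Igsf6 was not called (0.155). DESeq2 called 7. Leaving out CD48dim library 1 or CD48dim library 2 from the fit of all libraries gave 7 calls each (5.44% and 5.46% of all genes in those fits), and leaving out any of the other 6 gave 0. A fit blocked on the replicate number called 6 (Mpo, Ctsg, Ms4a3, Fcnb, Calr and Nkg7), against 2.02% of all genes. Ribosomal protein genes, which were not called, were also negative in 20 of 20 genes in this comparison (median -0.52), and their part in the members' values was not tested.

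Against CD48bright, 7 genes (Mpo, Elane, Ctsg, Ms4a3, Gstm1, Calr and Nkg7) had both CD41/CD9-negative libraries below both CD48bright libraries, where 20.4% of all genes did. The median was -1.90, against -0.02 for all genes. The fit of all libraries called 0 of the 10, against 0.212% of all genes, and 7 passed at an unadjusted p below 0.05 (7.12%). The fit of the 4 libraries alone called 5, Mpo, Elane, Ctsg, Ms4a3 and Nkg7, against 2.47% of 12437 genes. DESeq2 called 5, against 2.78% of all genes. Without CD48dim library 1 or without CD48dim library 2 the fit called 5 (3.09% and 3.08% of all genes), and without any of the other 6 libraries 0. With the replicate number as a block it called Ms4a3 and Nkg7 (0.751% of all genes).

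Against CD48dim, 6 genes (Elane, Ms4a3, Gstm1, Fcnb, Calr and Nkg7) did not overlap and were lower in CD41/CD9-negative cells, where 21.0% of all genes were. The median was -1.32, against -0.06. Elane alone was called, against 4.02% of all genes, and 5 passed at an unadjusted p below 0.05 (19.5%). DESeq2 called 4. Without CD48dim library 2 the fit called 7 genes (10.4% of all genes), without library 1 it called 1 (23.9%), with the replicate number as a block 3 (7.32%), and without either CD34bright or either CD41/CD9-negative library 0. Without library 1, Mpo, Prtn3, Ctsg and Igsf6 turned to higher levels in CD41/CD9-negative cells, at 0.34, 1.18, 0.53 and 0.066. The fit of the 4 libraries alone called 0, against 1.02% of its 12599 genes. In 5 of the 10 genes (Elane, Ms4a3, Gstm1, Calr and Nkg7) both CD41/CD9-negative libraries were below all 6 others, against 6.29% of all genes. These 3 comparisons share the CD41/CD9-negative libraries, so their values are not independent of one another.

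**Figure D4:**
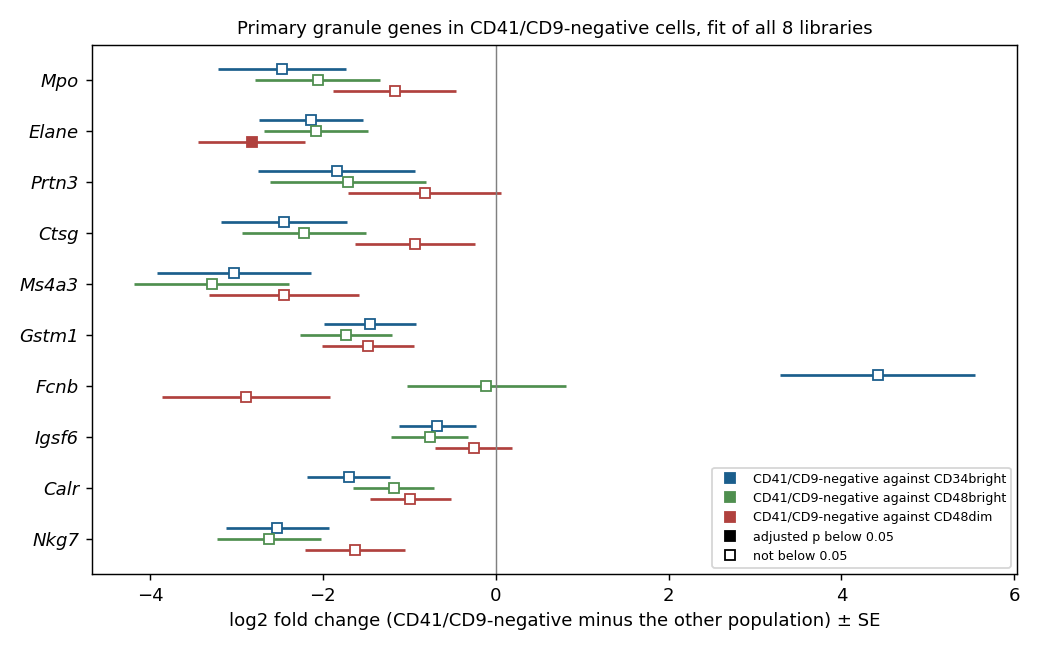
log2 fold change of the 10 genes in CD41/CD9-negative cells against each of the other 3 fractions, from the edgeR fit of all 8 libraries. Bars are the standard error, filled squares mark an adjusted p below 0.05 and open squares the rest. All but Fcnb lie below 0 in all 3 comparisons, from -0.26 to -3.29, and only Elane against CD48dim, at -2.82, is filled.

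The 3 CD41+ fractions were also compared with one another. CD34bright and CD48bright differed in 0 of the 10 genes by edgeR's adjusted p, against 0% of all genes. Fcnb was the 1 gene at an unadjusted p below 0.05 (1.99% of all genes) and the 1 gene without overlap, lower in CD34bright (16.7% of all genes). The median of the 10 was -0.02, and DESeq2 called 1 (0.281% of all genes). CD34bright against CD48dim gave 1 call, Fcnb (0.577% of all genes), or 2 with the replicate number as a block (5.18%), and 1 at an unadjusted p below 0.05 (19.0%). Mpo, Ctsg, Igsf6 and Nkg7 did not overlap and were higher in CD34bright (23.1% of all genes), and Fcnb did not overlap and was lower (23.2%). Without CD48dim library 1 that comparison gave 7 calls, against 28.4% of all genes in that fit, and without either CD34bright or either CD41/CD9-negative library 0. CD48bright against CD48dim gave 0 calls (0.387% of all genes), 1 at an unadjusted p below 0.05 (14.6%) and 1 gene without overlap, Fcnb, lower in CD48bright (18.9%). The share of all genes called by DESeq2 in this pair was 5.76%. DESeq2 called 1 there, and leaving out CD48dim library 1 gave 5 calls (23.3% of all genes in that fit) and leaving out library 2 gave 1 (2.92%). Across the 4 fractions, edgeR found any difference in Fcnb only (2.44% of all genes), with 7 genes at an unadjusted p below 0.05 (16.8%). The number called was 8 without CD48dim library 1 (24.7% of all genes), 7 without CD48dim library 2 (9.11%), and 0 without either CD34bright or either CD41/CD9-negative library. DESeq2 called 6 (13% of all genes), and a fit blocked on the replicate number called 6 (5.80% of all genes).

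The levels varied within a fraction as well as between fractions. In 8 of the 10 genes, all but Elane and Igsf6, library 1 was above library 2 by CPM in all 4 fractions, which held for 16.6% of all genes tested. In the deposited TPM this did not hold for Gstm1, with library 1 at 0.945 times library 2 in CD34bright and 0.740 times in CD48dim. For none of the 10 was library 1 the lower in all 4 (14.8% of all genes). By CPM the gap was widest in CD48dim for 7 genes, reaching 7.22-fold for Ms4a3 and 6.94-fold for Prtn3, and in CD48bright for Gstm1, Fcnb and Igsf6. For Elane, which is among the 7, the gap in TPM was wider in CD48bright (2.33-fold) than in CD48dim (1.91-fold). The CPM gap was narrow for most genes in CD41/CD9-negative cells, at 1.01-fold for Elane and 1.19-fold for Ctsg. Together the 10 genes took 2.06% and 1.60% of all counts in CD34bright, 2.15% and 0.978% in CD48bright, 1.68% and 0.432% in CD48dim, and 0.450% and 0.337% in CD41/CD9-negative cells. The share of CD48dim library 2 thus lay between those of the 2 CD41/CD9-negative libraries.

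The order of the fractions depended on the library for several genes. By the mean of both libraries, CD41/CD9-negative cells were lowest for 9 of the 10 genes, all but Fcnb. By the libraries numbered 2 alone they were lowest for 5, since CD48dim library 2 lay below them for Mpo, Prtn3 and Ctsg and CD48bright library 2 was the lowest for Igsf6. CD48dim was highest for Elane and Fcnb by mean CPM, and for Gstm1 also by mean TPM. In TPM within CD34bright, Mpo was at 10017 ± 462 (SD, n = 2), followed by Elane at 2885 ± 939, Ctsg at 1794 ± 416 and Prtn3 at 1668 ± 651, which overlapped. Calr (849 ± 78.3), Nkg7 (841 ± 36.3) and Gstm1 (695 ± 27.8) came next, then Ms4a3 (361 ± 113) and Igsf6 (126 ± 0.042), and Fcnb was at 0.38 ± 0.11.

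As a description over the 8 libraries, which share their depth and scaling, the members other than Fcnb varied together. The Pearson r of each gene's log2 CPM with the mean of the other 9 was 0.983 for Ms4a3, 0.939 for Calr, 0.919 for Nkg7, 0.916 for Mpo, 0.906 for Ctsg and 0.886 for Prtn3. It was 0.849 for Igsf6, 0.835 for Gstm1, 0.807 for Elane and -0.15 for Fcnb. Among 9727 other genes with a mean of at least 8 CPM, the 10 with the highest r to the mean of the members were Rgcc (0.979), Anxa1 (0.978), Top1mt (0.977), Alas1 (0.975), Afap1 (0.967), Vat1 (0.966), Deb1 (0.963), Terf2ip, Snap23 and Tusc2 (each 0.949). Alas1, which encodes the enzyme that begins haem synthesis, was at 176 and 102 CPM in CD34bright, 229 and 103 CPM in CD48bright, 156 and 71.6 CPM in CD48dim and 58.3 and 53.2 CPM in CD41/CD9-negative cells. Anxa1, which encodes the phospholipid-binding protein annexin A1, was at 196 and 143, 232 and 127, 162 and 89.5, and 87.9 and 59.8 CPM in the same order.

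Other proteins of primary granules and lysosomes formed a list of 22 genes, of which 19 were tested. Cd63, a membrane protein of these granules, and Pglyrp1, a peptidoglycan-binding protein, fell in CD41/CD9-negative cells against CD48dim (2 of 19 called, against 4.02% of all genes). Most of the list did not fall there, with 11 positive and 8 negative fold changes (median 0.34). In the other 5 pairs edgeR called 0 of the 19. At an unadjusted p below 0.05 there were 0 to 5 (1.99% to 19% of all genes), and DESeq2 called 0 or 1 (0.281% to 9.77%). Cd63 was at 8.03 and 18.7 CPM in CD41/CD9-negative cells, 153 and 47.0 CPM in CD48dim and 107 to 134 CPM in the other 4 libraries (log2 fold change -2.90 ± 0.59, adjusted p = 0.0309). That call was lost without CD41/CD9-negative library 1 (0.233) or 2, or CD48bright library 2. Pglyrp1 was at 19.6 and 5.33 CPM in CD41/CD9-negative cells, 172 and 78.2 CPM in CD48dim, 84.9 and 28.4 CPM in CD48bright and 44.0 and 41.6 CPM in CD34bright (-3.33 ± 0.74, 0.0396). Its call was lost without either CD34bright or either CD41/CD9-negative library, with an adjusted p of up to 0.242. The median of the 19 in CD41/CD9-negative against CD34bright was -0.36, against -1.99 for the 10 genes. Srgn, which encodes serglycin, the proteoglycan that holds the proteases in the granule, ranged from 485 and 508 CPM in CD41/CD9-negative cells to 942 and 1372 CPM in CD34bright. Ctsc, which encodes the cathepsin that trims the protease precursors, was at 68.9 and 43.8 CPM in CD41/CD9-negative cells and at 53.9 and 52.9 CPM in CD34bright.

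Inhibitors of the granule proteases were a list of 12 genes, 8 of them tested. Serpina3g fell in CD41/CD9-negative cells against CD48dim, with 6.22 and 8.48 CPM against 131 and 19.1 CPM (log2 fold change -3.35 ± 0.75, adjusted p = 0.0423), and edgeR called none of the other 7 in any pair. DESeq2 called 3 of the 8 in that comparison, against 11.7% of all genes. The call held without either CD48dim library and was lost without any 1 of the other 6, with an adjusted p of up to 0.283. Serpinb1a, an inhibitor of elastase, proteinase 3 and cathepsin G, was at 282 and 217 CPM in CD34bright, 285 and 175 CPM in CD48bright, 179 and 85.7 CPM in CD48dim and 134 and 138 CPM in CD41/CD9-negative cells.

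Transcription factors that act on granule and monocyte genes were a list of 15, all tested. In CD41/CD9-negative cells against CD48dim, Irf8, Klf4 and Cebpg rose and Gfi1b fell (4 of 15 called, against 4.02% of all genes). In CD34bright against CD48dim, Cebpa and Irf8 were higher, in CD48bright against CD48dim Irf8 was higher, and edgeR called 0 of 15 in the other 3 pairs (2 to 6 at an unadjusted p below 0.05, 0 to 4 by DESeq2). Irf8, which directs monocyte and dendritic cell fates, was at 1104 and 820 CPM in CD41/CD9-negative cells, 143 and 141 CPM in CD34bright, 170 and 207 CPM in CD48bright and 6.83 and 0.27 CPM in CD48dim. Its rise of 7.99 ± 1.02 against CD48dim (adjusted p = 0.00445) was called whichever of the 8 libraries was left out. Its higher levels in CD34bright (5.24 ± 0.90, adjusted p = 0.0436) and CD48bright (5.64 ± 0.92, 0.0453) than in CD48dim were not called when any 1 of the 6 libraries outside CD48dim was left out (up to 0.166 and 0.189). Klf4 was at 139 and 88.6 CPM against 10.4 and 16.5 CPM there (3.09 ± 0.48, adjusted p = 0.0102, lost without CD41/CD9-negative library 1 at 0.0891). Gfi1b, an erythroid and megakaryocyte relative of Gfi1, was at 21.9 and 21.3 CPM against 131 and 81.5 CPM (-2.30 ± 0.37, adjusted p = 0.0109, lost without either CD41/CD9-negative library, up to 0.133). Cebpg was at 158 and 241 CPM against 75.8 and 51.0 CPM (1.65 ± 0.38, adjusted p = 0.0460), and its call was lost without any 1 of the 6 libraries outside CD48dim (up to 0.320).

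Cebpa, which encodes the factor needed to form granulocyte and monocyte progenitors, was at 70.9 and 49.7 CPM in CD34bright, 43.2 and 24.9 CPM in CD48bright, 16.3 and 8.48 CPM in CD41/CD9-negative cells and 5.36 and 4.81 CPM in CD48dim. Its libraries did not overlap between any of the 4 fractions. It was higher in CD34bright than in CD48dim by 3.56 ± 0.54 (adjusted p = 0.0374), a call lost without either CD34bright library (up to 0.221) or either CD41/CD9-negative library. CD48dim had thus the lowest Cebpa and, with library 1, the highest Elane. Cebpe, the factor of the promyelocyte and later stages, was at 12.6 and 7.53 CPM in CD34bright, 20.2 and 2.93 CPM in CD48bright, 27.4 and 0 CPM in CD48dim and 2.83 and 0.32 CPM in CD41/CD9-negative cells. Gfi1, a repressor of monocyte genes, was at 57.4 and 43.5, 108 and 51.5, 86.4 and 37.5, and 17.1 and 24.4 CPM in that order, with both CD41/CD9-negative libraries below the other 6. Spi1, which encodes PU.1, was at 100 and 155, 91.7 and 54.2, 57.8 and 31.3, and 115 and 61.2 CPM in that order, so that CD41/CD9-negative cells lay within its range. Neither Cebpe, Gfi1 nor Spi1 was called by edgeR in any pair.

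**Figure D5:**
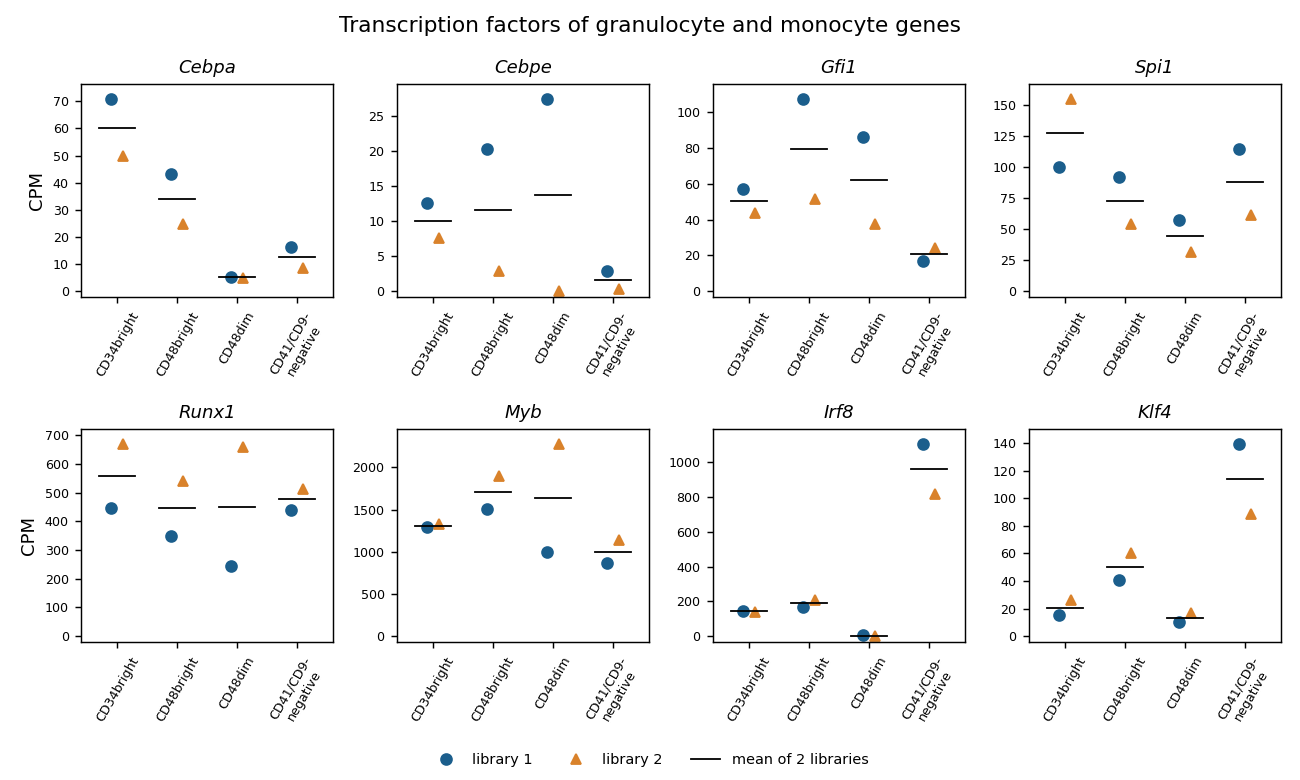
Level in CPM (linear axes) of 8 transcription factor genes by sorted fraction. Circles are library 1, triangles library 2 and lines the mean of both. Cebpa falls from 70.9 and 49.7 CPM in CD34bright to 5.36 and 4.81 CPM in CD48dim, and Irf8 is highest in CD41/CD9-negative cells, at 1104 and 820 CPM.

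Receptors of granulocytes and monocytes were a list of 10, all tested. Csf3r, the receptor of the granulocyte growth factor G-CSF, was at 175 and 173 CPM in CD34bright, 161 and 252 CPM in CD48bright, 190 and 269 CPM in CD48dim and 74.6 and 139 CPM in CD41/CD9-negative cells, and was not called by edgeR in any pair. Csf1r, the receptor of the macrophage growth factor M-CSF, rose in CD41/CD9-negative cells against CD48dim, from 6.09 and 1.37 CPM to 153 and 113 CPM (5.10 ± 0.63, adjusted p = 0.00422). Cxcr4, a chemokine receptor that holds cells in the marrow, rose in the same comparison (adjusted p = 0.0190). The call of Csf1r held whichever library was left out, and that of Cxcr4 was lost without either CD41/CD9-negative library (up to 0.117). Csf1r was also higher in CD34bright (adjusted p = 0.0374) and in CD48bright (0.0453) than in CD48dim, and both calls were lost without either CD34bright library, either CD41/CD9-negative library or CD48bright library 2 (up to 0.166 and 0.218). The second was also lost without CD48bright library 1.

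Genes of other cell types also differed in CD41/CD9-negative cells, some lists being higher there and others lower. Their part in the members' levels was not tested. The 16 monocyte and dendritic genes summed to 4896 and 3749 CPM there and to 278 to 1547 CPM in the other 6 libraries, and 10 of the 16 rose against CD48dim (4.02% of all genes called), among them Irf8, Klf4 and Csf1r, which are also in the lists above. The 9 lymphoid genes summed to 3087 and 2057 CPM against 121 to 367 CPM, and 7 of 9 rose against CD48dim, or 4 without CD41/CD9-negative library 1. The 17 genes of basophils, eosinophils and mast cells summed to 331 and 433 CPM against 1328 to 2057 CPM, and 5 of the 14 tested fell against CD34bright (0.842% of all genes called). That count was 0 without either CD41/CD9-negative library or CD34bright library 2, and 2 without CD34bright library 1. Tpsb2, a tryptase of mast cells, was at 0 in all 8 libraries. In CD48dim, 12 erythroid and megakaryocyte genes summed to 1336 and 1294 CPM against 238 to 767 CPM in the other 6 libraries, and 10 stem cell genes to 1439 and 2083 CPM against 262 to 545 CPM.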

How the data were processed

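RNA was measured in 8 libraries, 2 from each of 4 sorted fractions, grouped by the sort gates of the labels. Per the labels' protocols, the Ovation RNA-Seq System V2 turned 5 ng of total RNA into amplified cDNA, and a TruSeq kit took 1 ug of this cDNA, giving libraries without strand information. The submitters' processing notes name STAR 2.7.2a, RSEM 1.3.2, edgeR 3.30.3 and mm10. Their settings were not given in the sources used here. Each library's deposited table gives expected counts (estimated counts that need not be whole) and TPM per gene, per the file headers. A deposited second table per library, a subset of the same expected counts, was not used.

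Expected counts were rounded to whole numbers, which altered 1.52% to 2.2% of the genes of a library. Of 24411 genes, 13177 passed filterByExpr, grouped by fraction. TMM scaled the libraries, and differences were tested with edgeR 4.0.16 (R 4.3.3, quasi-likelihood F-test, two-sided, Benjamini-Hochberg adjusted p below 0.05) in 1 model with a mean per fraction, 4 residual and 5.46 prior degrees of freedom, and a biological coefficient of variation of 49.8%. Standard errors were taken as the absolute log2 fold change over the root of the F statistic. Totals were 20632001 and 15017606 counts in CD34bright, 19594633 and 10318451 in CD48bright, 12753197 and 7237585 in CD48dim, and 12893836 and 12073090 in CD41/CD9-negative cells. No 2 libraries held identical values. DESeq2 1.42.0, limma 3.58.1 (voom), other scaling, no filter, a replicate block, the compared libraries alone and leaving out each library were alternatives. The test was tried on simulated data. The 10 members are all named, with up to 4 called members of each other list, list members a count needs, paralogs, neighbours and the 10 genes of highest r (log2 CPM with a prior count of 2). The members and lists were chosen with earlier results of these data known. Promoter sequences and positions are those of RefSeq, GRCm38.p6.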

Additional observations from a re-analysis of the deposited data

How the results depend on the processing

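Of 518 recomputed values for 37 fold changes of the 10 genes, 399 kept their direction and side of the threshold, 98 became called, 11 lost their call and 10 reversed. The number of the 10 genes called was 0 for CD48bright against CD48dim, and 1 in DESeq2 and with no filter on low counts (0 to 5 leaving out each library). For CD34bright against CD48dim it was 1, and 0 in limma-voom and with the compared libraries alone and 2 with no filter (0 to 7). For CD41/CD9-negative against CD48dim it was 1, and 4 in DESeq2, 5 with no filter and 0 with the compared libraries alone (0 to 7). For CD34bright against CD48bright it was 0, and 1 in DESeq2 and with no filter (0 to 0). For CD41/CD9-negative against CD48bright it was 0, and 5 in DESeq2, 7 with no filter and 5 with the compared libraries alone (0 to 5). For CD41/CD9-negative against CD34bright it was 0, and 7 in DESeq2, 9 with no filter and 9 with the compared libraries alone (0 to 7). For any difference it was 1, and 6 in DESeq2, 0 in limma-voom and 9 with no filter (0 to 8). In the order of the comparisons above, DESeq2 called 5.76%, 9.77%, 11.7%, 0.281%, 2.78%, 4.74% and 13% of all genes. With no filter the shares were 3.18%, 5.51%, 6.44%, 0.211%, 1.63%, 2.88% and 8.69%. For the pairs with the compared libraries alone they were 0%, 0%, 1.02%, 0%, 2.47% and 8.7%. The limma-voom shares were 0.342% for CD34bright against CD48dim and 2.9% for any difference. With the replicate number as a block the counts were 2 for CD34bright and 3 for CD41/CD9-negative against CD48dim, 2 for CD41/CD9-negative against CD48bright, 6 against CD34bright and 6 for any difference. The deviations of same-numbered libraries correlated at 0.112 to 0.222 across genes in the 6 pairs of fractions. The fit without the block was kept because the labels do not say what the number marks and each fraction has only 2 numbers, and whether the numbers pair the libraries was not settled. DESeq2's size factors in edgeR kept every count of members within 1.5 times. Leaving out each library in turn, the log2 fold change of CD41/CD9-negative against CD48dim ranged from -1.89 to 0.34 for Mpo, -1.62 to 1.18 for Prtn3, -1.64 to 0.53 for Ctsg and -0.51 to 0.066 for Igsf6, and that of Elane against CD48dim from -1.25 to 0.26 in CD34bright and -1.66 to 0.21 in CD48bright. Each positive end was without CD48dim library 1. In CD41/CD9-negative against CD48bright it ranged from -0.89 to 1.46 for Fcnb (0.39 without CD41/CD9-negative library 2, and 0.14 with the replicate block) and from -1.29 to 0.082 for Igsf6, both positive ends being without CD48bright library 1. The counts of all genes called moved too. Under the other settings and leaving out each library, 51 in CD48bright against CD48dim became 0 to 759 and 4 to 3211, 76 in CD34bright against CD48dim 0 to 1288 and 0 to 3911, and 530 in CD41/CD9-negative against CD48dim 129 to 1536 and 81 to 3295. The 0 in CD34bright against CD48bright became 0 to 39 and 0 to 20, 28 in CD41/CD9-negative against CD48bright 26 to 366 and 0 to 435, 111 against CD34bright 117 to 1081 and 3 to 772, and 322 for any difference 344 to 1718 and 32 to 3399. The cause was not tested. Where a library was left out of a compared fraction, the remaining one was assumed to vary like the other fractions. Fcnb in CD34bright rests on 7 counts over both libraries, which limits the precision of its level there.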
